A study of Mus musculus with 29 samples.

Results

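Expression of 10 genes of the erythroid program was followed across all libraries of the series. They were Gata1, Klf1, Epor, Gfi1b, Zfpm1, Tfrc, Car1, Car2, Hba-a1 and Hbb-b1. They were chosen by gene symbol, and all 10 were found among the 30025 genes of the table. Of these, 9 passed the filter on low values (FPKM of at least 1 in at least 4 libraries, where FPKM is fragments per kilobase of exon scaled to the depth of the library), and Gata1 did not. RNA-seq libraries were made from 3 sorted bone marrow populations of C57BL/6J mice aged 12.42 to 13.85 weeks. WT mice gave 5 libraries each of CD150hi HSC, CD150lo HSC and CD150neg MPP, and 5A3+/del mice gave 5, 5 and 4, each population from 1 mouse per library. The 5A3+/del mice carried a heterozygous germ line deletion on mouse chromosome band 5A3, present in every cell of the animal, that models loss of human 7q22 in myelodysplastic syndrome, and no other allele or treatment was labelled in either genotype. The sort took c-kit+ Sca-1+ cells negative for CD41, CD48 and a lineage cocktail that included the red cell antigen Ter119, after red cell lysis, and divided them by CD150. The labels call all 3 populations HSC, whereas the study calls the CD150neg cells multipotent progenitors (MPP), the name used here.

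Hematopoietic stem cells carry low levels of transcripts of several blood lineages before they commit to any of them, a state known as lineage priming. Erythroid commitment is driven by Gata1 with its cofactor FOG-1, the product of Zfpm1, by the zinc finger factors Klf1 and Gfi1b, and by signals of erythropoietin through its receptor Epor. Transferrin receptor (Tfrc) brings in the iron, the carbonic anhydrases Car1 and Car2 are abundant enzymes of the red cell, and the globins Hba-a1 and Hbb-b1 are made in quantity only late in maturation.

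Depth ranged from 21229490 to 38797569 fragments per library. Slamf1, which encodes CD150, lay at 9.97 to 22.6 FPKM in CD150hi HSC, 0.180 to 2.64 in CD150lo HSC and 0.00951 to 0.296 in CD150neg MPP, in the order of the sort. In all, 7 genes of the deleted interval had 5A3+/del means at 0.143 to 0.632 of the WT means (median 0.508), and the genotypes did not overlap in 17 of 21 comparisons by gene and population. The 3 libraries of WT mouse 3 stood apart, with Xist at 234 to 319 FPKM against at most 0.470 in every other library. Without this mouse the same number of members passed the test in each of the 12 contrasts.

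The proximal promoters of Gfi1b and Zfpm1 are shown because these were the members that differed between populations. Each is the 250 bases before the RefSeq transcription start (GRCm38.p6), Gfi1b on the minus strand of chr2:28621983-28622232 and Zfpm1 on the plus strand of chr8:122281891-122282140, 5′ to 3′. Capitals mark matches on either strand to a GATA motif, which was AGATAA or its variant form AGATAG, or else TGATAA or its variant form TGATAG, or to the CACCC-type motif CCNCNCCC bound by KLF factors.
Gfi1b: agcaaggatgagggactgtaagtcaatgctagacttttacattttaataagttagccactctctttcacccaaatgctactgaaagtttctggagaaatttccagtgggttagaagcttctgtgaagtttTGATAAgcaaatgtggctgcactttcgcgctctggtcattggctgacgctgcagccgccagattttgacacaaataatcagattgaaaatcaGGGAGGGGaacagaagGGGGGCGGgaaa
Zfpm1: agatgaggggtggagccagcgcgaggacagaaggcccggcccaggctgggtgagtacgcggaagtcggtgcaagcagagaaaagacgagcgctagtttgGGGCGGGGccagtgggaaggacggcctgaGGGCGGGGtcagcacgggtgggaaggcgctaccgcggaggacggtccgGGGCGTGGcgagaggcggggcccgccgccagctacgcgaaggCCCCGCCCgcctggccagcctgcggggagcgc
Gfi1b had 1 GATA match, 120 bases before the start, and 2 CCNCNCCC matches. Zfpm1 had 4 CCNCNCCC matches and no GATA match, and its window was the richer in G and C (73.2% against 44.4%). Of the 7 members with an entry in the promoter table, GATA letters were found in 4 (Klf1, Epor, Gfi1b and Hba-a1) and CCNCNCCC in 5 (Gata1, Epor, Gfi1b, Zfpm1 and Tfrc). Among 32851 promoters of the same length these motifs occurred in 26.5% and 45.9%. AATCAC, the core letters bound by GFI factors, was in none of the 7 and in 9.14% of all. Car1, Car2 and Hbb-b1 had no entry.

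The 10 genes spanned a wide range of expression. On the FPKM scale, which is per length and so allows genes to be set side by side, Car2 had a mean of 398.6 over the 29 libraries and ranked 77 of 30025 genes. Zfpm1 (mean 13.6), Gfi1b (13.4), Hbb-b1 (10.0), Tfrc (8.05) and Car1 (5.25) followed. Epor (0.910), Klf1 (0.702), Hba-a1 (0.669) and Gata1 (0.232) all lay under 1 FPKM. Car2, Zfpm1, Gfi1b, Hbb-b1 and Tfrc were found in every library, while Klf1, Epor and Hba-a1 were under 0.5 FPKM in some mice and above 1 FPKM in others of the same group.

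**Figure D1:**
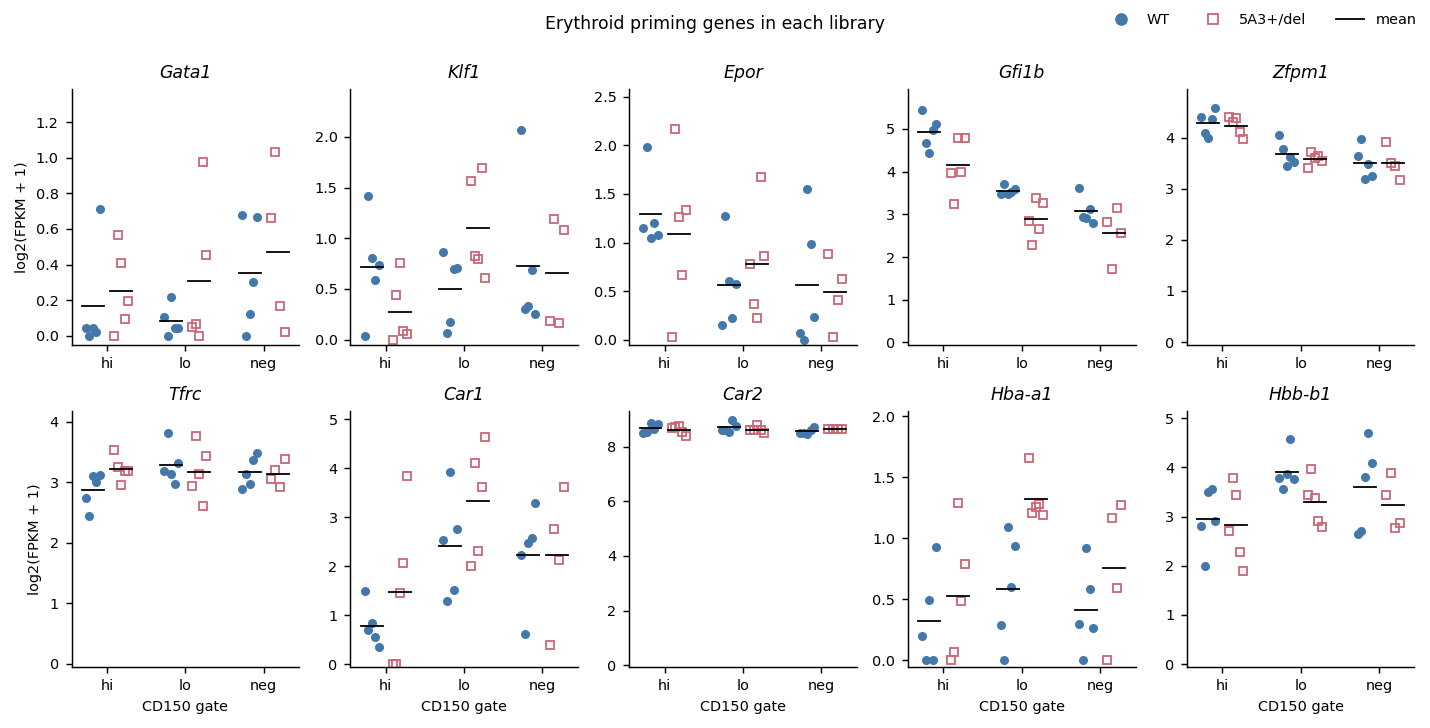
log2(FPKM + 1) of each erythroid gene in each library, by CD150 gate (hi, CD150hi HSC; lo, CD150lo HSC; neg, CD150neg MPP), with filled circles for WT and open squares for 5A3+/del mice and a black line at each group mean; each panel has its own scale. Gfi1b and Zfpm1 were highest in CD150hi HSC in both genotypes, and Car2 lay within 330.7 to 502.8 FPKM in all 29 libraries.

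Which erythroid genes differed between the populations was tested with limma on quantile normalized log2(FPKM + 1), with p-values adjusted over all 15409 genes that passed the filter. In the comparison of CD150hi with CD150lo HSC, 2 of the 9 members tested passed an adjusted p of 0.05 in WT mice (3.53% of all genes did) and 2 of 9 in 5A3+/del mice (3.18%). In the comparison of CD150hi HSC with CD150neg MPP, again 2 of 9 passed in WT (10.0% of all genes) and 2 of 9 in 5A3+/del mice (6.16%). In all 4 comparisons the 2 genes were Gfi1b and Zfpm1, both higher in CD150hi HSC, a direction called for 2.07% and 5.47% of all genes in the WT comparisons with CD150lo HSC and CD150neg MPP and for 1.81% and 3.23% in the 5A3+/del ones. No member passed between CD150lo HSC and CD150neg MPP (0.188% of all genes in WT and 0.0389% in 5A3+/del), where limma gave an unadjusted p under 0.05 for 0 members in WT (8.75% of all genes) and 1, Hba-a1, in 5A3+/del mice (4.95%). The median log2 difference of the 9 members, CD150hi minus CD150lo HSC, was -0.10 in WT and -0.10 in 5A3+/del mice, against 0.00 for all genes in each, and 4 of the 9 lay above 0 in each genotype. After normalization these 2 populations did not overlap for 2 of the 9 members in WT (4.04% of all genes) and 2 in 5A3+/del mice (4.33%). With the mouse as a replicate block, 3 members passed between CD150hi and CD150lo HSC in WT (4.07% of all genes) and 3 in 5A3+/del mice (3.91%), as described with Hbb-b1 and Car1.

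Gfi1b (mm9 chr2:28464970-28477502, minus strand), a transcriptional repressor required for both erythroid and megakaryocytic cells, showed the largest called difference among the members. In WT CD150hi HSC it lay at 42.5, 24.6, 20.8, 30.2 and 33.4 FPKM in mice 1 to 5. In WT CD150lo HSC the values were 10.2, 12.0, 10.2, 10.6 and 11.0 FPKM, and in WT CD150neg MPP 11.2, 6.61, 6.57, 7.67 and 5.96 FPKM. Every WT CD150hi library was above every other WT library. After normalization, groups without overlap were found for 4.04% of all genes between CD150hi and CD150lo HSC and for 8.63% between CD150hi HSC and CD150neg MPP. The log2 difference was 1.36 ± 0.27 (SE) for CD150hi against CD150lo HSC (2.57-fold, adjusted p = 0.00297) and 1.92 ± 0.27 against CD150neg MPP (3.77-fold, adjusted p = 1.88e-05).

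The same order of the group means of Gfi1b held in 5A3+/del mice. CD150hi HSC had 14.7, 8.40, 26.5, 15.0 and 26.6 FPKM, CD150lo HSC had 6.16, 3.90, 9.50, 5.32 and 8.56 FPKM, and the 4 CD150neg MPP libraries had 6.11, 2.28, 7.84 and 4.94 FPKM. Mouse 2 was the lowest in all 3 populations, so the CD150hi and CD150lo groups overlapped although the CD150hi library was the higher one in 5 of 5 mice. The log2 difference was 1.26 ± 0.27 for CD150hi against CD150lo HSC (2.40-fold, adjusted p = 0.00637) and 1.62 ± 0.29 against CD150neg MPP (3.07-fold, adjusted p = 0.000459). The first of these lost its call in a fit to the compared libraries alone (adjusted p = 0.0785).

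Zfpm1 (mm9 chr8:124806039-124861146, plus strand) moved in the same direction with a smaller difference. Its WT values were 20.1, 16.0, 14.9, 19.6 and 22.9 FPKM in CD150hi HSC, 15.6, 12.7, 9.94, 11.3 and 10.4 FPKM in CD150lo HSC, and 11.5, 14.6, 8.18, 10.2 and 8.53 FPKM in CD150neg MPP. The WT CD150hi libraries were all above the CD150neg libraries but overlapped CD150lo HSC, where mouse 1 was high. The log2 difference in WT was 0.58 ± 0.14 against CD150lo HSC (adjusted p = 0.0166) and 0.81 ± 0.14 against CD150neg MPP (adjusted p = 0.000237). The former lost its call without WT mouse 4 (adjusted p = 0.117) or mouse 5 (0.153) and in a fit to the compared libraries alone (0.125).

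In 5A3+/del mice Zfpm1 was at 20.2, 18.9, 19.7, 16.3 and 14.7 FPKM in CD150hi HSC, 9.54, 12.1, 11.2, 11.4 and 10.7 FPKM in CD150lo HSC and 14.0, 10.3, 9.90 and 8.04 FPKM in CD150neg MPP. Here the CD150hi libraries were above all others of the genotype, where 4.33% of all genes had no overlap with CD150lo HSC and 7.61% none with CD150neg MPP. The log2 difference was 0.65 ± 0.14 against CD150lo HSC (adjusted p = 0.00644) and 0.76 ± 0.15 against CD150neg MPP (adjusted p = 0.00124). CD150lo HSC and CD150neg MPP overlapped for both genes in both genotypes, and limma gave neither gene an unadjusted p under 0.05. The WT mean of Gfi1b was nonetheless higher in CD150lo HSC (10.8 against 7.60 FPKM), and a missed threshold does not show equal levels.

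**Figure D2:**
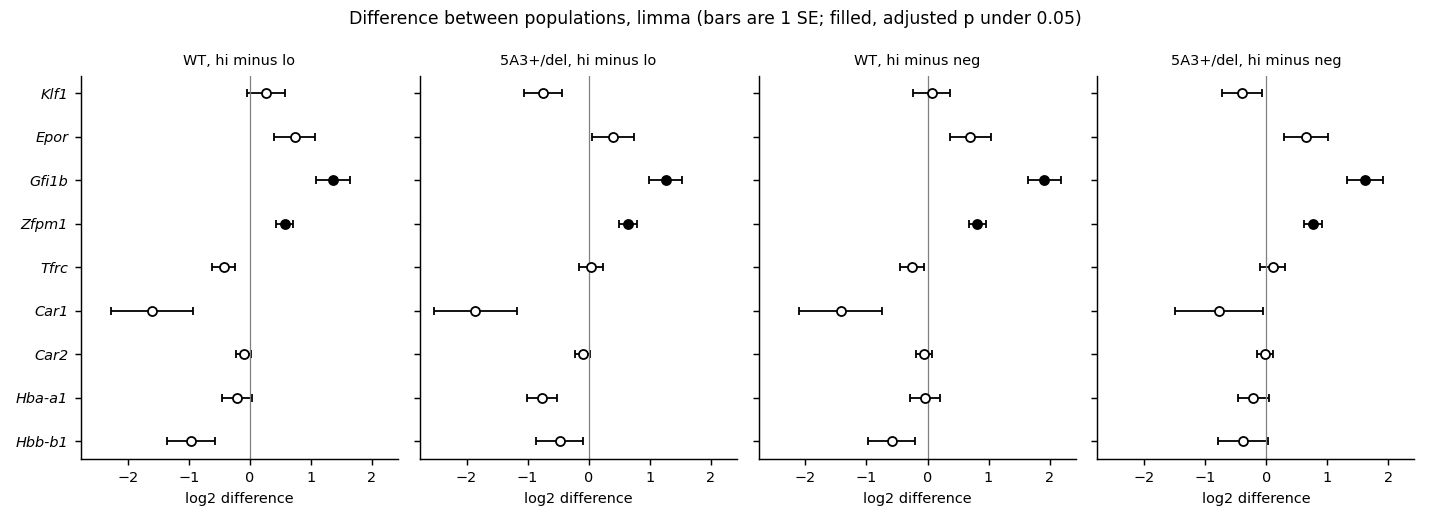
log2 difference (dot) and its standard error (bar) for the 9 members tested, CD150hi HSC minus CD150lo HSC and CD150hi HSC minus CD150neg MPP in each genotype, with filled dots for an adjusted p under 0.05. Only Gfi1b and Zfpm1 were filled, at 1.26 to 1.92 and 0.58 to 0.81, while Car1 and Hbb-b1 lay to the left of 0 in all 4 panels.

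The level of Gfi1b and Zfpm1 followed that of Slamf1 between groups, with low correlations within them. Over the 29 libraries Pearson's r of log2 values with Slamf1 was 0.82 for Gfi1b and 0.88 for Zfpm1, and r between Gfi1b and Zfpm1 was 0.75. After subtraction of each group mean these were 0.03, 0.20 and 0.06. The libraries share their sort gates and mice, and CD150 defined the groups, so these values are descriptions. Megakaryocyte markers moved with the same comparison: the summed FPKM of 13 markers was 312 to 344 in WT CD150hi HSC and 167 to 251 in WT CD150lo HSC, and 297 to 384 against 236 to 253 in 5A3+/del mice, with 1 marker making up most of each sum. Among these markers Vwf was called higher in CD150hi than in CD150lo HSC in both genotypes, and Treml1 in 5A3+/del mice. Pf4 lay at 9.84 to 39.7 FPKM, whereas Gp6 was at 0 in 27 of 29 libraries and Gp1bb in 15. The sum of 9 T and NK cell markers was 5.14 to 20.8 FPKM in all CD150hi libraries and 21.5 to 58.0 in CD150neg MPP, mostly from Nkg7, which was called lower in CD150hi HSC than in CD150neg MPP in both genotypes (-1.76 ± 0.33 in WT and -2.15 ± 0.35 in 5A3+/del mice, adjusted p = 0.000595 and 0.000135). Klrb1c of the same list was called higher in this comparison (1.44 ± 0.29 and 1.27 ± 0.30, adjusted p = 0.00114 and 0.00806), and Cd3e, Cd3g and Cd8a were at 0 in 19, 17 and 17 of 29 libraries. The part of these markers in the Gfi1b and Zfpm1 values was not tested, and in bulk libraries fewer cells of a type and less RNA per cell cannot be told apart.

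Gata1 (mm9 chrX:7536386-7555197), the master regulator of the lineage, was close to the limit of detection. It lay at 0 to 1.05 FPKM, which is 0 to 66 fragments per library, and 13 of 29 libraries held 3 fragments or fewer. In 5 libraries there were none, which allows up to 3 fragments each. WT CD150hi HSC had 0.0325, 0, 0.0301, 0.0150 and 0.637 FPKM, so that 1 of 5 mice carried nearly all of the signal of that group. The highest libraries were 5A3+/del mouse 2 in CD150neg MPP (1.05 FPKM) and mouse 4 in CD150lo HSC (0.966 FPKM). The 5A3+/del mean log2(FPKM + 1) exceeded that of WT by 0.09 for CD150hi HSC, by 0.23 for CD150lo HSC and by 0.12 for CD150neg MPP (exact permutation p = 0.627, 0.325 and 0.619, all 0.627 when adjusted over the 3 tests, two-sided).

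Klf1 (mm9 chr8:87425827-87429194), an activator of globin and membrane genes, was likewise uneven between mice of one group. It ranged from 0 to 3.19 FPKM and from 0 to 104 fragments, and reached 1 FPKM in 6 of 29 libraries. In 5A3+/del mice it was at 0, 0.356, 0.689, 0.0633 and 0.0385 FPKM in CD150hi HSC and at 1.96, 0.767, 0.737, 2.24 and 0.522 FPKM in CD150lo HSC. The CD150hi library was lower in 5 of 5 mice, but the groups overlapped on the deposited scale. The log2 difference of -0.75 ± 0.31 did not pass (adjusted p = 0.254). WT mice showed no such order, with 0.0258 to 1.67 FPKM in CD150hi HSC and 0.0458 to 0.823 in CD150lo HSC. The difference between genotypes in this gap, -1.03 ± 0.44, did not pass either (adjusted p = 0.999).

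Other transcription regulators of the erythroid and stem cell programs, 16 genes in all, each reached 1 FPKM, and all 16 were tested. Of these, Gata2 and Mllt3 were called higher in CD150hi than in CD150lo HSC in both genotypes with none called lower (2 of 16 each, where 3.53% of all genes were called in WT and 3.18% in 5A3+/del mice). Gata2, which precedes Gata1 on shared target sites, differed by 0.65 ± 0.15 in WT and 0.80 ± 0.15 in 5A3+/del mice (adjusted p = 0.0121 and 0.00159). Mllt3 differed by 0.86 ± 0.14 and 1.10 ± 0.14 (adjusted p = 0.000335 and 1.04e-05). Against CD150neg MPP, Gata2, Mllt3 and Sox6 were called higher and Foxo3 and Lmo2 lower in WT (5 of 16, against 10.0% of all genes), and Mllt3, Gata2, Sox6 and Tal1 higher in 5A3+/del mice (4 of 16, against 6.16%). With the mouse as a block Tal1 was called in WT too (adjusted p = 0.0268). Factors that bind with or beside Gata1 were well above it, since Tal1 lay at 25.7 to 51.8 FPKM, Nfe2 at 46.6 to 88.1 and Gata2 at 29.4 to 114.

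Epor (mm9 chr9:21763343-21768020), the erythropoietin receptor, was found at 0 to 3.50 FPKM. WT CD150hi HSC had 1.21, 2.94, 1.06, 1.30 and 1.11 FPKM, and WT CD150lo HSC had 0.113, 1.42, 0.523, 0.166 and 0.487 FPKM. All 5 WT CD150hi libraries reached 1 FPKM against 1 of 5 in CD150lo HSC, and the CD150hi library was the higher in 5 of 5 mice, but mouse 2 made the groups overlap. The log2 difference of 0.74 ± 0.34 did not pass (adjusted p = 0.320), nor did that of 0.70 ± 0.34 against CD150neg MPP (adjusted p = 0.226). In 5A3+/del CD150hi HSC the values of 0.0205, 3.50, 1.40, 0.584 and 1.52 FPKM spread wider than in WT, and no difference between populations reached an unadjusted p of 0.05.

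Downstream of the receptor, 14 signalling genes were tested. Of all genes, 3.53% in WT and 3.18% in 5A3+/del mice were called between CD150hi and CD150lo HSC. Between CD150hi HSC and CD150neg MPP these shares were 10.0% and 6.16%. Socs2, a feedback inhibitor induced by STAT5, was called higher in CD150hi than in CD150lo HSC in both genotypes, by 0.70 ± 0.19 in WT (adjusted p = 0.0305) and 1.01 ± 0.19 in 5A3+/del mice (adjusted p = 0.00119). Bcl2l1, which encodes the survival factor BCL-XL, was called in 5A3+/del mice alone in this comparison, at 0.80 ± 0.16 (adjusted p = 0.00353), and the difference of its gap between genotypes was not called. Against CD150neg MPP both genes were called higher in both genotypes. Sh2b3, an inhibitor of JAK2 signalling, was called lower in CD150hi HSC than in CD150neg MPP of 5A3+/del mice (-0.43 ± 0.13, adjusted p = 0.0452), but with the mouse as a block its adjusted p was 0.0651. Cish, another STAT5 target, was called only with the block, between CD150hi HSC and CD150neg MPP in both genotypes and between CD150hi and CD150lo HSC in 5A3+/del mice (adjusted p = 0.00343, 0.00127 and 0.0101), as was Socs3, lower in CD150hi HSC than in CD150neg MPP of 5A3+/del mice (0.0441). These genes also act downstream of other cytokine receptors. The share of all genes called with the block against CD150neg MPP is not given here.

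Tfrc (mm9 chr16:32609006-32632880) was detected in every library at 4.44 to 13.0 FPKM. In WT CD150hi HSC it was at 5.65, 4.44, 7.55, 7.06 and 7.69 FPKM and in WT CD150lo HSC at 8.16, 13.0, 7.84, 6.85 and 8.93 FPKM. The groups overlapped, and the log2 difference of -0.43 ± 0.19 did not pass (adjusted p = 0.300). The group means of WT CD150neg MPP and of the 3 populations of 5A3+/del mice lay between 7.89 and 8.44 FPKM. Of 10 other iron genes tested, Tfr2, the second transferrin receptor, was called higher in CD150hi HSC than in CD150neg MPP in both genotypes (0.65 ± 0.14 and 0.69 ± 0.14, adjusted p = 0.00169 and 0.00249). In this comparison 10.0% of all genes were called in WT and 6.16% in 5A3+/del mice. Steap3, the reductase of the transferrin cycle, was called lower in WT CD150hi HSC than in CD150neg MPP (-0.74 ± 0.24, adjusted p = 0.0470), a call lost with the mouse as a block (adjusted p = 0.0615). None of the 10 was called between CD150hi and CD150lo HSC without the block, with which Tfr2 was called in WT (adjusted p = 0.0399). All 12 heme synthesis genes were tested and limma called none in any contrast, while with the block Tmem14c was called lower in CD150hi HSC than in CD150neg MPP of 5A3+/del mice (adjusted p = 0.0427). Tmem14c and Cpox were the highest by mean level (18.2 and 12.7 FPKM), and Alas2, the erythroid form of the first enzyme, was at 0.536 to 7.53 FPKM.

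Of the carbonic anhydrases among the members, Car2 (mm9 chr3:14886426-14900769) was at 331 to 503 FPKM in all 29 libraries, with group means from 376 to 419 FPKM. Its largest group SD was 52.0 FPKM, and no contrast gave it an unadjusted p under 0.05. Car1 (mm9 chr3:14766217-14778459), its neighbour on the chromosome, varied from 0 to 23.9 FPKM, 0 to 812 fragments. WT CD150hi HSC had 1.81, 0.632, 0.778, 0.464 and 0.269 FPKM, and WT CD150lo HSC 4.83, 1.43, 14.2, 1.87 and 5.75 FPKM. The WT CD150hi library was lower in 5 of 5 mice, and the groups overlapped only through CD150hi mouse 1.

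In 5A3+/del mice Car1 was at 0, 0, 1.73, 3.18 and 13.4 FPKM in CD150hi HSC and at 3.00, 16.2, 3.98, 11.4 and 23.9 FPKM in CD150lo HSC. Again the CD150hi library was lower in 5 of 5 mice, while mouse 5 was the highest in both populations. CD150neg MPP had 3.67, 0.521, 4.57, 4.96 and 8.86 FPKM in WT and 0.310, 5.77, 3.36 and 11.3 FPKM in 5A3+/del mice, and overlapped CD150lo HSC in both. The log2 difference between CD150hi and CD150lo HSC was -1.60 ± 0.68 in WT and -1.86 ± 0.68 in 5A3+/del mice, and neither passed without the mouse in the model (adjusted p = 0.257 and 0.170). With the mouse as a replicate block the SE was 0.48, and the difference passed in 5A3+/del (adjusted p = 0.0339) but not in WT mice (adjusted p = 0.0724). The difference between genotypes in this gap was not called. Of the cycling genes 16 of 16 were detected. Their summed FPKM was 125 to 194 in WT CD150hi and 154 to 215 in WT CD150lo HSC. In 5A3+/del mice it was 145 to 196 and 156 to 234, with overlapping ranges in both genotypes. Their r with Car1 was 0.58 over the 29 libraries, across groups, and their part was not tested. Of the 14 other carbonic anhydrases, 7 were tested, and Car11 alone was called (WT CD150hi HSC above CD150neg MPP by 0.86 ± 0.26, adjusted p = 0.0364, where 10.0% of all genes were called). With the block it was called in 5A3+/del mice too, against CD150lo HSC (adjusted p = 0.0259) and CD150neg MPP (0.0294).

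**Figure D3:**
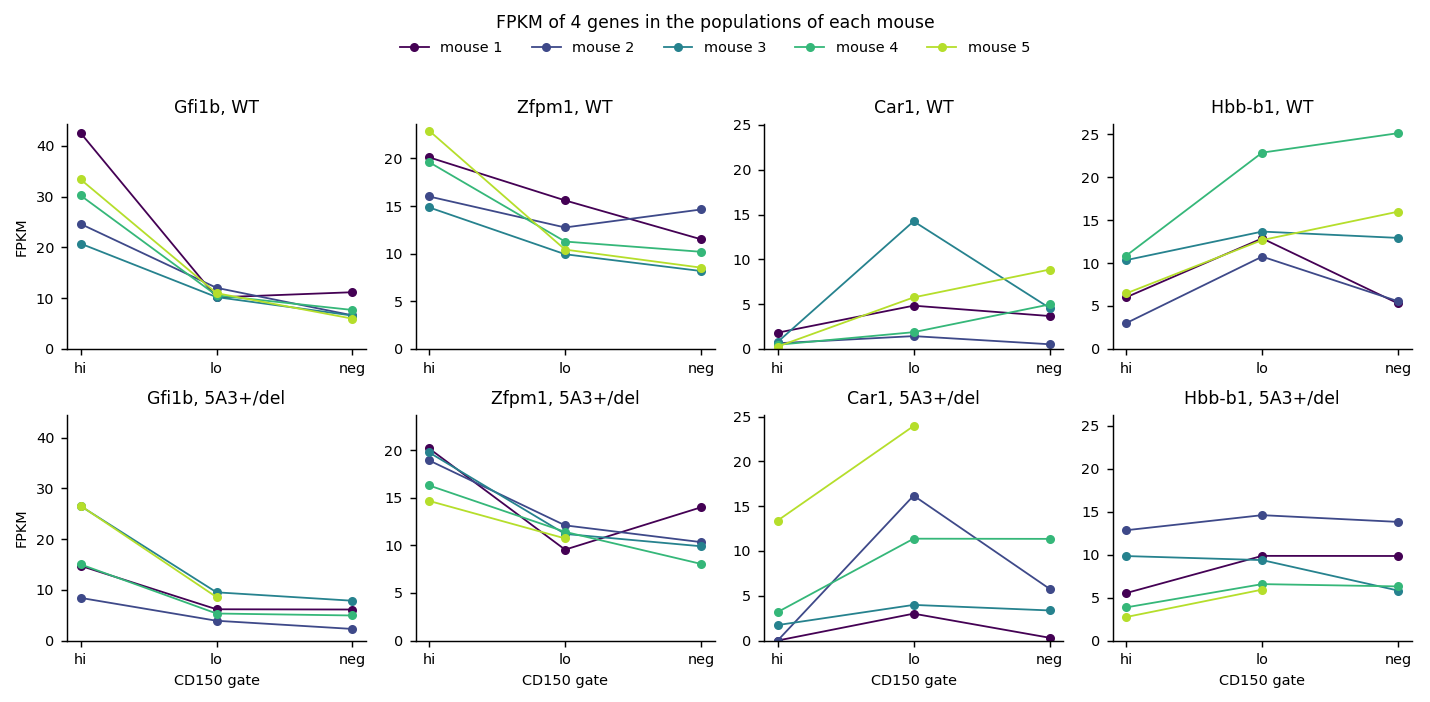
FPKM of Gfi1b, Zfpm1, Car1 and Hbb-b1 in the 3 populations (hi, lo and neg gates), with 1 line per mouse, WT above and 5A3+/del below; 5A3+/del mouse 5 has no CD150neg MPP library. Gfi1b was higher and Car1 lower in CD150hi than in CD150lo HSC in all 10 mice, while Hbb-b1 kept WT mouse 4 and 5A3+/del mouse 2 as the highest of their genotype in each population.

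Globin transcripts were present in every library, with most of the counted fragments assigned to beta globin. Hbb-b1 (mm9 chr7:110975048-110976610) ranged from 2.74 to 25.1 FPKM and its neighbour Hbb-b2 (mm9 chr7:110961038-110962510) from 10.1 to 76.5 FPKM. The 2 adult beta genes are near-identical copies, so the split of fragments between them is uncertain. Their values moved together (r = 0.94 over the 29 libraries, 0.92 after subtraction of group means), with Hbb-b2 at a median of 2.97 times Hbb-b1. Embryonic globins were nearly absent: Hbb-y was at 0 in 27 of 29 libraries and Hba-x in 28.

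In WT mice Hbb-b1 was at 6.01, 3.00, 10.3, 10.9 and 6.47 FPKM in CD150hi HSC and at 12.9, 10.7, 13.7, 22.9 and 12.7 FPKM in CD150lo HSC. The CD150hi library was lower in 5 of 5 mice, and the groups met at 10.9 and 10.7 FPKM, without overlap after normalization. The log2 difference was -0.96 ± 0.39 (adjusted p = 0.222), and with the mouse as a replicate block it passed (-0.96 ± 0.21, adjusted p = 0.0117). Hbb-b2 gave -1.04 ± 0.39 (adjusted p = 0.176), and -1.04 ± 0.20 with the block (adjusted p = 0.00394), with which it was also called lower in CD150hi HSC than in CD150neg MPP (0.0415). In 5A3+/del mice Hbb-b1 was at 5.53, 12.8, 9.84, 3.86 and 2.74 FPKM in CD150hi HSC and 9.86, 14.6, 9.37, 6.57 and 5.93 FPKM in CD150lo HSC, overlapping groups with no unadjusted p under 0.05. CD150neg MPP had 5.29 to 25.1 FPKM in WT and 5.82 to 13.8 FPKM in 5A3+/del mice, the widest WT spread of the 3 populations.

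Alpha globin was far lower. Hba-a1 (mm9 chr11:32183511-32184465) lay at 0 to 2.16 FPKM, 0 to 43 fragments, and its near-identical copy Hba-a2 (mm9 chr11:32196489-32197301) at 0 to 1.94 FPKM. Summed beta globin FPKM exceeded summed alpha globin in 29 of 29 libraries. The ratio of the group sums was 70.1, 67.7 and 83.1 in WT CD150hi HSC, CD150lo HSC and CD150neg MPP, and 25.0, 12.5 and 30.2 in 5A3+/del mice. No test was made of these ratios, which rest on few alpha globin fragments (0 to 75 per library). How reads matching both copies of a gene were counted is not known, so alpha and beta levels may not be comparable. Hba-a1 in CD150lo HSC was at 0.222, 0, 1.13, 0.515 and 0.913 FPKM in WT and at 2.16, 1.31, 1.39, 1.43 and 1.29 FPKM in 5A3+/del mice. All 5 mutant values lay above all 5 WT values on the deposited scale (26 to 43 fragments against 0 to 23). The share of all genes with such a separation on that scale is not given here. After normalization the groups overlapped, where 1.63% of all genes had no overlap between genotypes in CD150lo HSC. The log2 difference of 0.74 ± 0.24 did not pass (adjusted p = 0.369). The 5 mutant CD150lo libraries were among the 9 in which Hba-a1 reached 1 FPKM, and it met the filter without them. In 5A3+/del CD150hi HSC it was at 0, 0.0481, 1.44, 0.398 and 0.728 FPKM, lower than in CD150lo HSC in each mouse but mouse 3 on the deposited scale, and the log2 difference of -0.76 ± 0.24 did not pass (adjusted p = 0.0987).

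**Figure D4:**
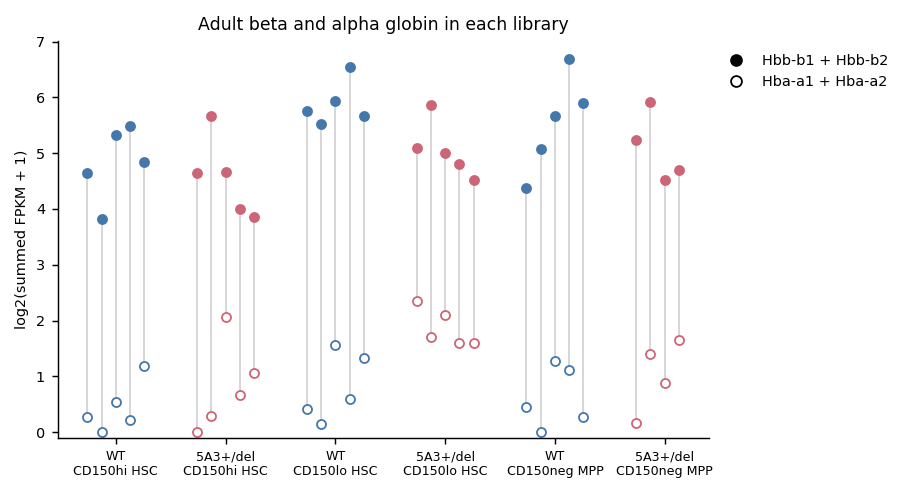
Summed FPKM of the adult beta globin genes (filled) and alpha globin genes (open) on a log2(FPKM + 1) axis for each library, in blue for WT and red for 5A3+/del mice; a grey line joins the values of a library. Beta was above alpha in 29 of 29 libraries. On the deposited scale alpha in 5A3+/del CD150lo HSC (2.01 to 4.1 FPKM) lay above alpha in WT CD150lo HSC (0.105 to 1.96 FPKM). The sums were not tested, and the share of all genes so separated on this scale is not given.

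Transcripts of the red cell membrane ranged from near 0 to clear levels. Slc4a1, the band 3 anion exchanger, reached at most 0.220 FPKM and was at 0 in 17 of 29 libraries. Trim10, Ank1 and Kel stayed under 1 FPKM, at most 0.136, 0.689 and 0.948. In contrast, Gypc, Epb4.1, Slc2a1 and Xk were above 1 FPKM in all 29 libraries. Between these groups lay Aqp1, Rhag, Epb4.2, Ermap and Rhd, which reached 3.03, 3.17, 3.34, 2.86 and 2.62 FPKM at most and 1 FPKM in 8, 5, 3, 2 and 2 libraries. Of 19 red cell membrane and blood group genes, 9 thus reached 1 FPKM in at least 1 library and 6 passed the filter, and none of the 6 was called lower in CD150hi HSC. Epb4.1, protein 4.1 of the membrane skeleton, was called higher in CD150hi than in CD150lo HSC by 0.51 ± 0.11 in WT and 0.63 ± 0.11 in 5A3+/del mice (adjusted p = 0.00417 and 0.000450). Xk was called higher in CD150hi HSC than in CD150neg MPP in both genotypes (0.98 ± 0.23 and 0.88 ± 0.25, adjusted p = 0.00585 and 0.0286). Of all genes, 3.53% in WT and 3.18% in 5A3+/del mice were called in the comparison with CD150lo HSC, and 10.0% and 6.16% in that with CD150neg MPP. Macrophage markers, of cells that take up red cells, summed to 5.71 to 48.5 FPKM, with C1qa at 0 in 11 of 29 libraries. The r of their log2 sum over the 29 libraries was 0.17 with Hbb-b1 and 0.26 with Hba-a1. Their sum had its highest group median in 5A3+/del CD150lo HSC, 36.4 FPKM against 16.8 in WT CD150lo HSC. The ranges of these 2 groups overlapped (7.01 to 44.6 and 8.21 to 48.5 FPKM), and the part of these markers in the globin values was not tested.

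Whether the 5A3 deletion changed the erythroid genes was tested within each population. No member passed in CD150hi HSC (0.156% of all genes did), CD150lo HSC (0.0324%) or CD150neg MPP (0.0454%). At an unadjusted p under 0.05 limma gave 1, 2 and 0 members, where 13.1%, 6.87% and 4.27% of all genes lay. These were Gfi1b in CD150hi HSC, Gfi1b and Hba-a1 in CD150lo HSC. The median log2 difference of the 9 members, 5A3+/del minus WT, was -0.04, 0.07 and 0.01, against 0.00, 0.01 and 0.00 for all genes.

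Gfi1b had the lower mean in 5A3+/del mice in each of the 3 gates, 18.2 ± 8.01 against 30.3 ± 8.41 FPKM (SD, n = 5 each) in CD150hi HSC, 6.69 ± 2.31 against 10.8 ± 0.774 in CD150lo HSC (n = 5 each) and 5.29 ± 2.33 (n = 4) against 7.60 ± 2.09 (n = 5) in CD150neg MPP. In CD150lo HSC every mutant library, 9.50 FPKM at most, was below every WT library, 10.2 at least. Groups without overlap, in either direction, were found for 1.63% of all genes. The log2 differences were -0.79 ± 0.27 (adjusted p = 0.202), -0.69 ± 0.27 (adjusted p = 0.569) and -0.49 ± 0.29, and leaving out any 1 mouse left the first between -0.95 and -0.56 with no call. Some neutrophil and monocyte markers were also lower in this genotype comparison. In 5A3+/del CD150hi HSC 8 of 12 reached 1 FPKM in at least 1 library, and in WT CD150hi HSC 12 of 12. Their sums overlapped, at 230 to 344 against 290 to 1144 FPKM. The markers differed in direction: S100a8 and S100a9 had means of 17.8 and 17.4 FPKM in 5A3+/del against 169 and 124 in WT CD150hi HSC. Lyz2 and Prtn3 had means of 194 and 30.9 against 179 and 30.4 FPKM. In CD150lo HSC the sums overlapped widely (238 to 626 against 213 to 1686 FPKM), and their part in the Gfi1b values was not tested.

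**Figure D5:**
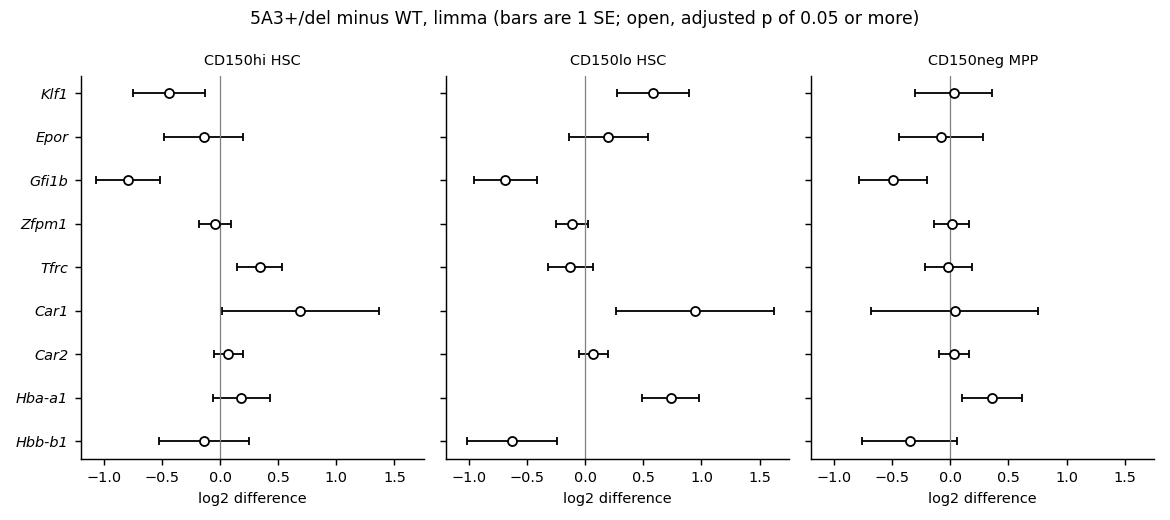
log2 difference (dot) and standard error (bar) of 5A3+/del minus WT for the 9 members tested, 1 panel per population, with open dots for an adjusted p of 0.05 or more. All dots were open, Gfi1b lay left of 0 in each panel (-0.79, -0.69 and -0.49), and Hba-a1 was at 0.74 in CD150lo HSC.

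The interaction asked whether the gaps between populations differed between genotypes. None of the 9 members passed the interaction of genotype with any of the 3 population pairs, where 0.00% of all genes did, and limma gave an unadjusted p under 0.05 for Klf1 alone, in CD150hi against CD150lo HSC (1 of 9, against 3.98% of all genes in this interaction and 5.00% and 7.96% in the other pairs, where 0 members lay). None of the other regulators, signalling, heme, iron, globin, membrane or carbonic anhydrase genes that were tested was called between genotypes in any population.

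The genes with the most similar profiles were sought for Klf1, Epor and Car1. Over the 29 libraries the 5 highest Pearson correlations with Klf1 were those of Hsd11b1 (0.74), BC031781 (0.71), Baiap2l1 (0.67), Prss36 (0.66) and A430105J06Rik (0.63). With Epor they were Zfp691 (0.77), Cox6b2 (0.73), Psmd9 (0.71), Chi3l7 (0.71) and Fam122a (0.71), and with Car1 Dnajc9 (0.76), Cbfb (0.75), Gm14436 (0.72), Capza2 (0.72) and Slbp (0.71). Among the members themselves Car1 and Hba-a1 had an r of 0.61 and Zfpm1 and Car1 of -0.62. The libraries share mice and gates, and at low levels such values also carry counting error. The listed genes were picked as the highest among the genes that passed the filter, and these correlations were not tested.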

How the data were processed

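RNA was amplified by the authors from sorted cells and sequenced with paired-end reads on an unstranded kit, and the reads were mapped to mm9. Bowtie 0.12.2 and HTSeq are named in the submitters' processing notes. The authors deposited 1 table of FPKM per gene for 29 libraries, which was used as deposited. Fragment counts were recovered from FPKM, exon length and depth (98.2% to 98.7% of low values per library were whole fragments, within 0.02), other than for Zfpm1, whose steps did not match its exon length. Since RNA was amplified and carried no molecular identifiers, fragment counts and floors cover counting error only. Positions came from the GENCODE annotation of mm9 (29279 of 30025 identifiers, 97.52%, matched), and promoter sequences from RefSeq (GRCm38.p6).

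Groups were set by the labels' genotype and cell type. Here log2(FPKM + 1) of genes with at least 1 FPKM in at least 4 libraries was quantile normalized and fitted with limma 3.58.1 in R 4.3.3, with 6 group means over all libraries. Contrasts were two-sided with Benjamini-Hochberg adjustment over 15409 genes and a threshold of 0.05. The study also used quantile normalization and limma, but on the mean coverage of each gene's best covered coding exon and with a filter on that measure, which is not used here. Differences in the text are on this log2 scale, which understates changes of low genes, and FPKM values are as deposited. Gata1, below the filter, was compared by exact permutation over mice. A code in the labels joins the populations of a mouse, so the mouse was used as a replicate block in an alternative fit. For calls made only with this block, the share of all genes is given for CD150hi against CD150lo HSC but not for CD150hi HSC against CD150neg MPP. Deviations from group means of libraries of the same mouse had correlations of -0.04 to 0.23 (median 0.08). The steps were tested on simulated data.

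The members and lists were chosen with earlier results of these data known. All 10 members are named. From the other lists, genes are named when called, up to 4 a list and contrast by adjusted p, with levels of further marker genes chosen after their values were seen. Results of some listed genes are not reported here. Alternatives changed the pseudocount, filter, normalization, variance prior, libraries, block and covariate, and left out each mouse. Plots were drawn with matplotlib 3.10.9.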

Additional observations from a re-analysis of the deposited data

Results flagged for a closer look

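In all, 5 values lay far from the rest of their group by Dixon's test on the log2 scale, among 60 combinations of member and group, where chance gives about 1 in 20, or 3. Gata1 in WT CD150hi HSC of mouse 5 was at 0.637 FPKM against 0 to 0.0325 in the other mice. Klf1 in WT CD150neg MPP of mouse 1 was at 3.19 FPKM against 0.190 to 0.615. Car2 in 5A3+/del CD150hi HSC of mouse 5 was at 331 FPKM against 370 to 429, and in WT CD150neg MPP of mouse 5 at 417 FPKM against 356 to 392. Hba-a1 in 5A3+/del CD150lo HSC of mouse 1 was at 2.16 FPKM against 1.29 to 1.43. No member of the list differed between genotypes in a population gap after adjustment.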

How the results depend on the processing

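The number of members called was recomputed for 12 contrasts under 21 alternatives, and 227 of 231 counts stayed within 1.5 times the reported one. With only the libraries compared in the fit, 1 member was called in place of 2 between CD150hi and CD150lo HSC in each genotype (Gfi1b in WT, Zfpm1 in 5A3+/del). Leaving out each mouse gave 1 to 2 members for this WT contrast, with Zfpm1 lost without WT mouse 4 or 5, and the reported count for every other contrast. With the mouse as a replicate block 3 members were called in place of 2 between CD150hi and CD150lo HSC in both genotypes, Hbb-b1 being added in WT and Car1 in 5A3+/del mice, and no call of a member was lost. The replicate number as a replicate block for the genotype contrasts left the count at 0, and same-numbered mice of the 2 genotypes shared only a number (correlations of -0.03 to 0.08). For single genes that passed the filter, only the 24 log2 differences with an unadjusted p under 0.05 in the reported fit were recomputed. This choice made a change of sign unlikely, and the other differences were not followed. Of 453 values of these differences under an alternative 446 kept their side of the threshold, and none changed sign. The Gata1 difference in CD150neg MPP changed sign without 5A3+/del mouse 2 (-0.0698) and ranged from -0.0698 to 0.27 over the mice left out, with ranges of 0.01 to 0.22 in CD150hi HSC and 0.06 to 0.30 in CD150lo HSC.

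Over all genes, calls between CD150hi and CD150lo HSC numbered 544 in WT (291 to 650 over the alternatives) and 490 in 5A3+/del mice (292 to 602), between CD150hi HSC and CD150neg MPP 1548 (1022 to 1776) and 949 (449 to 1067), and between CD150lo HSC and CD150neg MPP 29 (0 to 69) and 6 (0 to 8). Genotype calls numbered 24 (0 to 100), 5 (0 to 74) and 7 (0 to 8), and interaction calls 0 in each (up to 1, 13 and 2). The mouse block left 1 and 2 calls between CD150lo HSC and CD150neg MPP. The causes were not tested. Members under about 1 FPKM (Gata1, Klf1, Epor and Hba-a1) rest on at most 166 fragments in a library. They also varied between mice of a group, as Epor did in 5A3+/del CD150hi HSC (1 to 164 fragments). A difference between groups may therefore not be detectable in these data, and the part of depth in this was not tested. With a pseudocount of 0.1 the log2 differences of such genes grew, as in the Epor difference between WT CD150hi and CD150lo HSC (1.79 against 0.74), without a call. The FPKM filter of 10 removed Klf1, Epor and Hba-a1, which then had no value.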
